A study of Mus musculus with 60 samples.

Results

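Genes of the glandular stomach were followed in forestomach RNA of Muta Mouse, a mouse strain transgenic for a lacZ reporter, and set beside lung and liver of the same animals. The set comprised 10 genes (Tff1, Tff2, Gkn1, Gkn2, Gkn3, Atp4a, Atp4b, Muc5ac, Pgc and Ghrl) of 20018 genes with a symbol on the array. They were found through the RefSeq accession of each probe, which gave 12 probes of 55681, with a second probe for Tff1 and for Pgc. Each gene is described by its brightest probe. Male mice of about 10 weeks received olive oil alone (D0) or benzo(ghi)perylene (BghiP), a polycyclic aromatic hydrocarbon, dissolved in olive oil at 6.25 (D1), 12.5 (D2) or 25 (D3) mg/kg-bw/day. Dosing was by daily gavage for 28 days, and tissues were collected 72 hours after the final dose. The 5 animals of D0 carried the numbers 1 to 5, those of D1 6 to 10, those of D2 11 to 15 and those of D3 16 to 20, and a number names 1 animal in all 3 tissues. Each of the 60 arrays held Cy5-labelled RNA of 1 tissue of 1 mouse and Cy3-labelled universal reference RNA from 11 mouse cell lines. Values are log2 ratios of Cy5 to Cy3, so 0 stands for the level of the reference and a step of 1 for a factor of 2. Per the labels the RNA came from random sections of each organ, so a value describes a mixture of the cells in that section. In such a mixture, fewer cells of a type and less RNA per cell cannot be told apart.

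The mouse stomach has an anterior forestomach, lined by keratinized squamous epithelium without glands, and a posterior glandular part, and a ridge separates them. In glandular mucosa, surface mucous cells secrete mucin 5AC (Muc5ac), trefoil factor 1 (Tff1) and the gastrokines Gkn1 and Gkn2, which coat and protect the surface. Mucous neck cells, deeper in the gland, produce trefoil factor 2 (Tff2), and gastrokine 3 (Gkn3) belongs to mucous cells of the gland as well. Chief cells secrete zymogens such as progastricsin (Pgc), the precursor of a pepsin. Parietal cells acidify the lumen through the gastric proton pump, whose catalytic subunit is encoded by Atp4a and whose glycosylated partner subunit by Atp4b. Endocrine cells of the mucosa make ghrelin (Ghrl), a hormone that stimulates appetite.

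Sequence upstream of the transcription start is shown for 5 members, because members of different cell types moved together between arrays in the results that follow. RefSeq's table for GRCm38.p6 held 6 of the 10 members, and Ghrl, with 4 starts there, is not shown. Each line gives the 250 bases before the start, 5′ to 3′ on the strand of the gene, with its position in GRCm38.p6. The scanner files name an older build (mm9), and no array value was placed by these coordinates. Capitals mark TATAA, or its reverse complement TTATA, and GATAA, the core letters read by GATA factors, or its reverse complement TTATC.
Gkn1, chr6:87350916-87351165, - strand: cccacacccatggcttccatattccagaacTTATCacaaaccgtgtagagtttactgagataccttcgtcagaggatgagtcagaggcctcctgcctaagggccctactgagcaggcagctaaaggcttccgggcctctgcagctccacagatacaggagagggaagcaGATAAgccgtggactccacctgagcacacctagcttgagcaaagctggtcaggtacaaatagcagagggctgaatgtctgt
Gkn2, chr6:87373115-87373364, + strand: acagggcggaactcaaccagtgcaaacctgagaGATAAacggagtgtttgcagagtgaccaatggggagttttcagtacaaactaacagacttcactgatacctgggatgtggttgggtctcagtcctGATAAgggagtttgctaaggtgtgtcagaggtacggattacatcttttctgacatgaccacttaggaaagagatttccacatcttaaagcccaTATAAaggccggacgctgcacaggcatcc
Gkn3, chr6:87388936-87389185, - strand: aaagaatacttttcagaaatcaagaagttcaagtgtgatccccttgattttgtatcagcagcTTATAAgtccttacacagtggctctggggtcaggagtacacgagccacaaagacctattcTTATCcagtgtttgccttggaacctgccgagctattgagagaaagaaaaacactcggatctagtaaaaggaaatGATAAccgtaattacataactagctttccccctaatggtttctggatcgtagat
Pgc, chr17:47726592-47726841, + strand: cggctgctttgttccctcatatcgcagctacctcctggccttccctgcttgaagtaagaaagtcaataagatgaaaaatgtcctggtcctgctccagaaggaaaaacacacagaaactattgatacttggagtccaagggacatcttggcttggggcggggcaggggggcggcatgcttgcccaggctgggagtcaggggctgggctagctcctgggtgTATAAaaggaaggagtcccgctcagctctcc
Atp4a, chr7:30711959-30712208, + strand: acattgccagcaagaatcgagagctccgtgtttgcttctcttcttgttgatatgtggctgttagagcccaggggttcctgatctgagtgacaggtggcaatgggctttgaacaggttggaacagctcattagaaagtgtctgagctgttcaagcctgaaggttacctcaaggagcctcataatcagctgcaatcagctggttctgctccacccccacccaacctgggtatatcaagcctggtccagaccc
All 3 gastrokine genes lie within a short stretch of chromosome 6. TATAA stood 29 bases before the start in Gkn2 and 31 bases before it in Pgc, on the strand of the gene. In Gkn3 the letters TTATAA hold TATAA and TTATA at once, at 187 and 188 bases before the start. GATAA or TTATC occurred in the windows of Gkn1, Gkn2 and Gkn3, and neither motif was present in that of Atp4a. Among all 32851 promoter windows of 250 bases in the table, 22.8% held TATAA on either strand and 22.6% held GATAA. The matches describe letters and not sites of binding.

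The label forestomach was checked against squamous and smooth muscle genes. Of 11 squamous genes, 9 were well above background on all 20 forestomach arrays, among them the keratins Krt5, Krt14, Krt4 and Krt13 and loricrin (Lor). Presence alone was not particular to forestomach for all of these, since Lor, Sbsn and Trp63 were well above background on all 20 lung and all 20 liver arrays and Krt14 on 19 and 15. Krt4 was so on 1 lung and 0 liver arrays, and the log2 ratio of Lor was higher in forestomach by 6.08 than in lung and by 6.49 than in liver. Trp63 went the other way, at -0.47 against lung and -0.66 against liver, the only squamous gene on the list to do so. All 6 smooth muscle genes on the list were well above background on all 20 forestomach arrays, and on all 20 lung arrays as well. The share of probes well above background in Cy5 ran from 21.3% to 53.3% over the 20 forestomach arrays and differed mostly between slides, from 21.3% to 27.1% on slide 2 and from 49.4% to 53.3% on slide 5. On slides 1 to 5 each slide held 4 forestomach arrays, 1 of each dose, with 4 lung arrays, whereas liver had slides of its own.

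On 12 of the 20 forestomach arrays all 10 members were well above background, and on the other 8 the proton pump genes were low while other members varied. The values of the proton pump subunit Atp4b fell on either side of a wide gap. In D0 its log2 ratio was -0.26, 7.60, 6.92, 0.57 and 0.36 in mice 1 to 5. In D1 it was 0.94, 7.84, 7.17, 8.30 and 7.91 in mice 6 to 10. In D2 it was 0.04, 7.62, 7.56, 7.28 and 1.12 in mice 11 to 15. In D3 it was 5.89, -0.02, -0.11, 7.42 and 4.85 in mice 16 to 20. No array lay between 1.12 and 4.85, with 8 arrays below this gap and 12 above it, and every dose group had arrays on both sides. Atp4a, the catalytic subunit, had its widest gap between 0.42 and 2.63 and reached 7.76 in mouse 9. The widest gap of 6 members (Atp4b, Atp4a, Tff2, Gkn3, Muc5ac and Ghrl) left the same 12 arrays above it. These were mice 2 and 3 of D0, mice 7 to 10 of D1, mice 12 to 14 of D2 and mice 16, 19 and 20 of D3. On the other 8 arrays between 2 and 9 members were well above background in Cy5. Mouse 15 had 9, with 4 of the log2 ratios over 2, and mice 4 and 6 had 6 and 7.

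**Figure D1:**
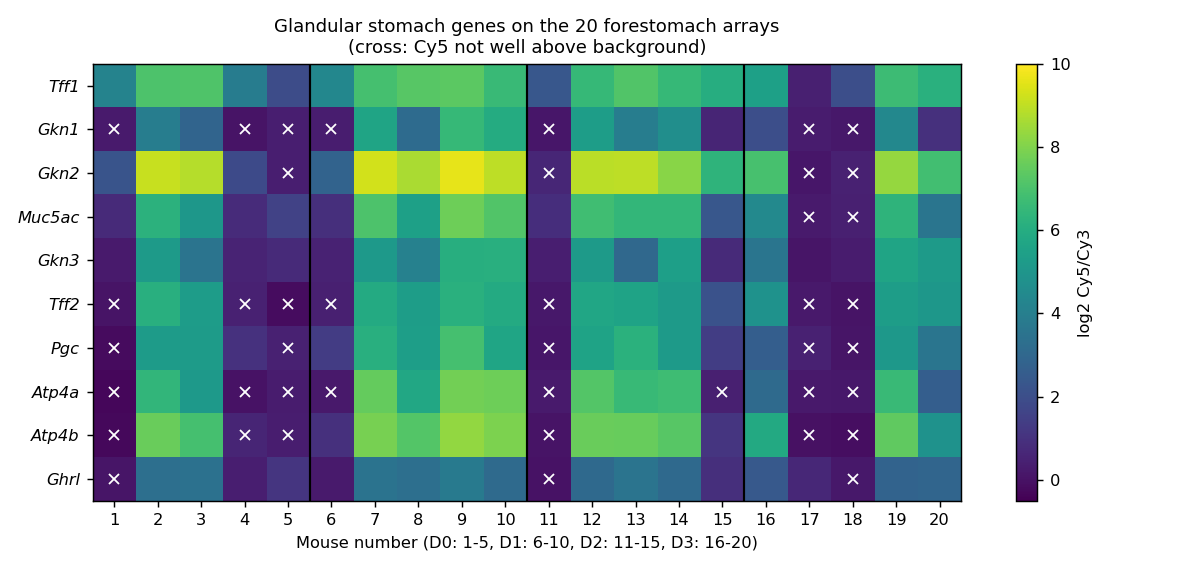
Log2 Cy5/Cy3 of the 10 glandular stomach genes (rows) on the forestomach array of each mouse (columns, with lines between dose groups), where crosses mark a Cy5 signal not well above background. In mice 2, 3, 7 to 10, 12 to 14, 16, 19 and 20 all 10 genes were well above background, whereas Atp4a lay at 0.42 or lower in the other mice.

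Tff1 and Gkn2, both surface mucous genes, did not stop at the same arrays as the parietal genes. Tff1 was well above background on all 20 forestomach arrays, with a lowest value of 0.44 in mouse 17, a median of 6.36 and a highest value of 7.36 in mouse 9. Tff1 was 4.20 in mouse 1, 3.90 in mouse 4, 4.38 in mouse 6 and 6.06 in mouse 15, 4 arrays on which Atp4b was 1.12 or lower and Atp4a was not well above background. In mouse 15 Tff1 thus stood within the upper part of its range and Atp4a, at 0.42, within the lower part of its own. Gkn2 was 2.21, 1.85, 2.86 and 6.34 in the same 4 mice and 0.14 to 0.62 in mice 5, 11, 17 and 18. Over the 20 arrays Gkn2 ran up to 9.59, with its widest gap between 2.86 and 6.34. The opposite arrangement, a high Atp4b beside a low Tff1, occurred on no array: wherever Atp4b was 4.85 or higher, Tff1 was 5.45 or higher. Muc5ac, the surface mucin, was intermediate in mouse 15 at 2.34 and between 0.26 and 1.57 in the other mice with a low Atp4b.

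**Figure D2:**
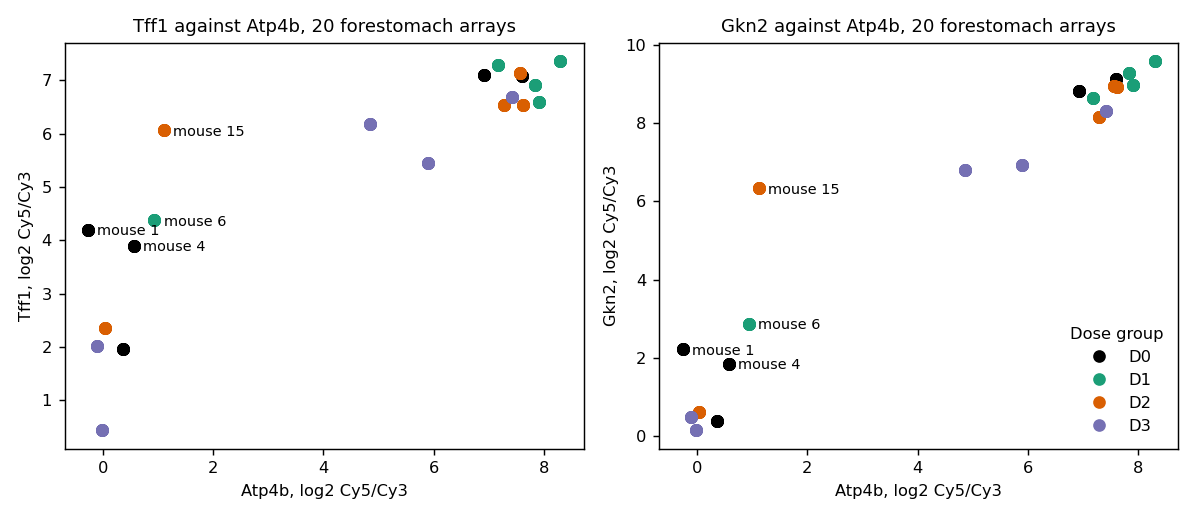
Log2 Cy5/Cy3 of Tff1 (left) and Gkn2 (right) against Atp4b on the 20 forestomach arrays, coloured by dose group. Mice 1, 4, 6 and 15 had Tff1 between 3.90 and 6.06 with Atp4b at 1.12 or lower, and no array had a high Atp4b with a low Tff1.

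The remaining members differed among the high arrays. Tff2, the mucous neck product, was narrow there as a ratio, from 4.85 in mouse 16 to 6.16 in mouse 9, and was 2.16 in mouse 15. Its Cy3 signal ran from 37 to 8370 over the forestomach arrays, so the narrow range belongs to the ratio and not to Cy5. Gkn3 was 6.10 in mouse 9 and 6.14 in mouse 10 but 3.53 in mouse 3 and 3.05 in mouse 13. Gkn3 stayed at 5.21 in mouse 20, where Gkn1, made by surface mucous cells, was 0.96 and Atp4a 2.63. Pgc, the chief cell zymogen, was 2.63 in mouse 16 and 3.58 in mouse 20 and lay between 5.09 and 6.90 on the other high arrays. Mice 16 and 20, both of D3, therefore combined Tff1 of 5.45 and 6.18 with lower values of Pgc, Atp4a and Gkn1 than any other of the 12 arrays. Ghrl lay between 2.42 and 3.84 on the 12 arrays.

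Within the 12 arrays all 45 pairs of members correlated positively, with Pearson's r from 0.06 to 0.98 and a median of 0.81. Correlations between members are given within a cluster, because the 20 arrays fall into separate clusters. The permutation p, two-sided and adjusted by Benjamini-Hochberg over the 45 pairs, was 0.05 or less for 31 pairs by Pearson's r and for 26 by Spearman's rho. The 12 arrays were those with all members above background, so they were picked by the levels that are correlated. The tightest block was Gkn1, Muc5ac, Atp4a and Atp4b, genes of surface mucous and parietal cells, whose 6 pairs had r from 0.92 to 0.98 (adjusted permutation p = 6.4e-05 for each). Atp4a and Atp4b, the subunits of 1 enzyme, correlated at r = 0.97 and rho = 0.93 (adjusted permutation p = 6.4e-05 and 0.00019), and at r = 0.91 without the 2 arrays farthest from the median of Atp4a. For Gkn3, r with the 9 other members ran from 0.06 to 0.58 and no pair passed (lowest adjusted permutation p = 0.065). These values also depended on a few arrays, and without the 2 farthest they ran from -0.42 with Tff1 to 0.77 with Gkn1. Tff1 with Atp4a depended on a few arrays, with r = 0.62 over 12 arrays (adjusted permutation p = 0.05) and -0.32 without the 2 farthest. Over all pairs r ran from -0.42 to 0.98 without the 2 farthest arrays and from 0.33 to 0.98 after slide means were removed. On the other 8 arrays Tff1 and Gkn2 still ordered the mice alike, with r = 0.92 and rho = 1 (exact permutation p = 2.5e-05 and 5e-05, adjusted over 6 pairs 0.00015 and 3e-04). The other 5 pairs tested there, with Muc5ac and Pgc, did not pass (adjusted exact permutation p from 0.098 to 0.17 for r and from 0.21 to 0.27 for rho). The 8 arrays, too, were picked by the levels that are correlated. Gkn2 was well above background on 16 of the 20 forestomach arrays, so its order among the lowest arrays ranks values near background.

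All 10 members were higher in forestomach than in lung and liver when the 4 doses were averaged. The question of this comparison is how far the genes set the stomach apart from tissues of the same mice without gastric glands. Against lung the difference had a median of 3.51 over the members on the log2 scale, from 0.81 for Ghrl to 5.77 for Gkn2. Of the 10 members 10 were called higher, where 15.7% of the 33253 probes tested were called higher. Tff1, Gkn2, Pgc, Atp4a and Atp4b passed the filter on dim probes through forestomach alone, being well above background on at most 2 lung arrays and 1 liver array each. Their direction was therefore fixed by the filter, and the count of 10 is a description for these 5. Against liver the median difference was 3.43, from 2.24 for Ghrl to 5.85 for Gkn2, with 10 of 10 called higher against 21.5% of all probes. The medians over all probes tested were -0.0125 and 0.0232. The model was fitted across all probes and all 12 groups (limma), which share 1 estimate of the spread for each probe. For the 5 members that did not pass through forestomach alone, Tff2, Gkn1, Gkn3, Muc5ac and Ghrl, the Benjamini-Hochberg adjusted p ran from 2.66e-10 to 0.00572 for lung and from 1.1e-10 to 1.2e-06 for liver. A mean over forestomach arrays averages a high and a low set of values, so its SD is wide: Atp4b averaged 4.45 ± 3.54 (SD, n = 20) in forestomach, -0.14 ± 0.13 (SD, n = 20) in lung and -0.03 ± 0.13 (SD, n = 20) in liver.

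Complete separation of the tissues was rarer than a higher mean. Tff1 and Gkn2 were higher on every forestomach array than on every liver array, 2 of 10 members, where 12.2% of all probes were so ordered. Both had passed the filter on dim probes through forestomach alone, so their direction was fixed and the count is a description. Against lung no member was so ordered, where 5.24% of all probes were. This 0 rested on the lung array of mouse 20: without it Tff1 and Gkn2 were, 2 of 10 members, beside 5.32% of all probes, an alternative chosen after seeing the data. In the 5 vehicle mice alone, 5 of 10 members were called higher than in lung, beside 14.5% of all probes, and 7 of 10 higher than in liver, beside 21% of all probes. Of these, 4 in each comparison (Tff1, Gkn2, Pgc and Atp4b) had passed the filter through forestomach alone, which leaves Muc5ac against lung and Gkn3, Muc5ac and Ghrl against liver. In these mice the difference from lung was 2.94 ± 0.96 (SE) for Muc5ac and 0.44 ± 0.54 (SE) for Ghrl (limma, adjusted p = 0.00843 and 0.514). The SE and the calls use a spread pooled over all groups, so they do not measure the spread among the vehicle mice. For Muc5ac in D0 the SD was 2.58 in forestomach and 0.09 in lung.

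**Figure D3:**
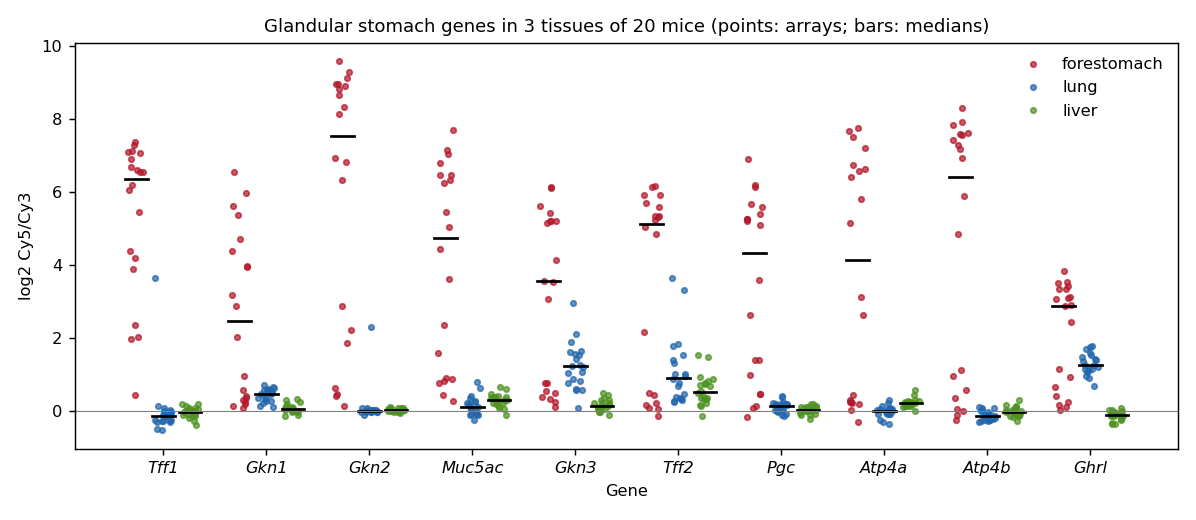
Log2 Cy5/Cy3 of the 10 genes on the 20 forestomach (red), lung (blue) and liver (green) arrays, with a black bar at each median. Forestomach values of Atp4b and Atp4a form a high and a low set, and medians in lung and liver are 1.25 or lower, with Tff1 at 3.64 and Gkn2 at 2.30 in lung of mouse 20.

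Several members were not well above background in the other tissues, so their Cy5 level there has only an upper limit. For the Cy5 signal alone, with the lowest signal well above background on each array as a floor for the dim side, Tff1 was at least 518-fold higher in forestomach than in liver, Gkn2 at least 229-fold, Pgc at least 97.1-fold and Gkn1 at least 4.42-fold. Atp4b was at least 68.3-fold higher than in lung and at least 68.1-fold higher than in liver, and Atp4a at least 18.1-fold higher than in lung. For the second probe of Pgc the bound against liver was 49.5-fold. These are bounds on the Cy5 signal and not on the ratio to the reference, whose differences were smaller: against liver the log2 ratio differed by 5.35 for Tff1, 5.85 for Gkn2 and 3.36 for Pgc. They compare geometric means over 20 arrays, which in forestomach include arrays on both sides of each member's widest gap. Both sides of each bound are Cy5 signals, and without a dye swap no bound was checked with the dyes exchanged.

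Lung and liver each had members above background. In lung, Ghrl was well above background on 20 of 20 arrays, from 0.68 to 1.77 with a median of 1.25, and on 1 liver array, from -0.36 to 0.08. The lowest forestomach values of Ghrl, 0.01 in mouse 11 and 0.11 in mouse 1, lay below every lung value. Gkn3 was well above background on 19 lung arrays, from 0.08 to 2.96 with a median of 1.22, and on 20 liver arrays, from -0.12 to 0.49. Tff2 had a median of 0.90 in lung and reached 3.63 in mouse 14 of D2 and 3.31 in mouse 20 of D3. The lung array of mouse 20 also had Tff1 of 3.64, Gkn2 of 2.30, Muc5ac of 0.78 and Pgc of 0.40, the highest lung value of each. The next lung value of Pgc was 0.38, in mouse 14, whereas Tff1 was 0.12 or lower and Gkn2 0.08 or lower on the other 19 lung arrays. On that array Atp4b was 0.06, Atp4a 0.04 and Krt4 -0.02, and the lung surfactant gene Sftpc was 8.88. What set this lung array apart was not tested.

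The Cy3 channel, which held the same reference RNA on all arrays, was not constant for these genes. On forestomach arrays the Cy3 signal of Gkn2 ran from 37.6 to 2310, against 36.8 to 62.4 in lung and 31.9 to 42.4 in liver. For Ghrl it ran from 67 to 48500 in forestomach and from 57 to 87 in liver, and for Pgc from 35 to 20100 in forestomach and from 34 to 46 in liver. Cy3 was high where Cy5 was high: in mouse 9 Ghrl had a Cy5 signal of 96300 with Cy3 of 48500, and in mouse 17 it had 127 with 104. A ratio to such a Cy3 signal is smaller than a ratio to a constant one, and what raised Cy3 was not tested. On Cy5 alone the forestomach minus lung difference of Ghrl was 4.29 ± 0.85 (SE) in place of 0.81 ± 0.27 (SE), and that of Tff2 5.25 ± 0.95 (SE) in place of 2.38 ± 0.51 (SE) (limma, adjusted p = 1.4e-05, 0.00572, 2.4e-06 and 4.45e-05). Over the 10 members the Cy5 differences from lung ran from 2.02 for Gkn1 to 9.11 for Tff1. Against liver they ran from 2.37 for Gkn1 to 9.09 for Tff1, and that of Ghrl was 6.07 ± 0.85 (SE) in place of 2.24 ± 0.27 (SE), so the order of the members by size differed between the scales. Ghrl and Tff2 were also the members that lost the call against lung with the processed signals, at 0.45 (adjusted p = 0.174) and 0.97 (adjusted p = 0.112).

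**Figure D4:**
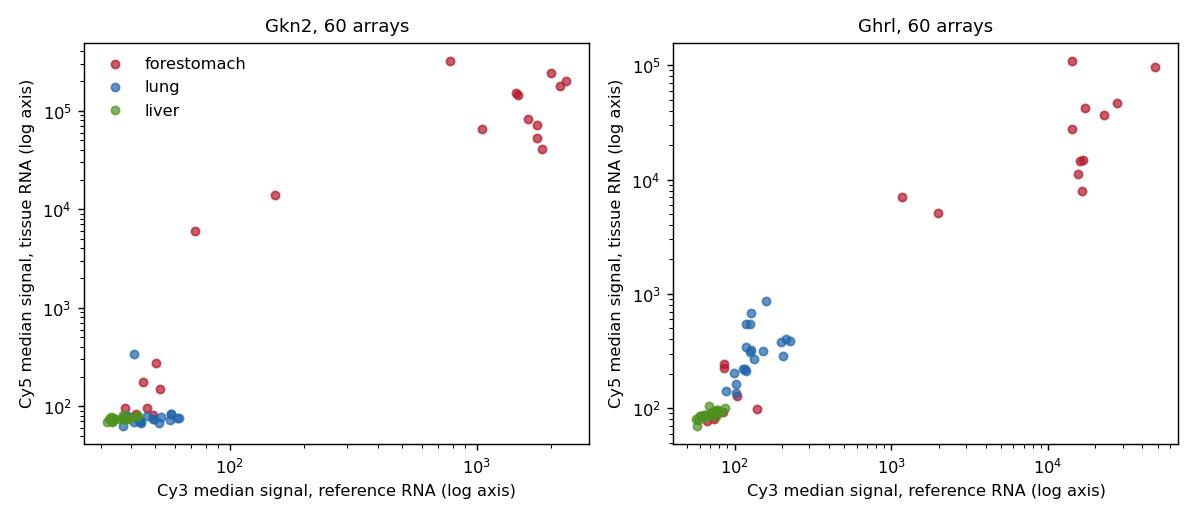
Median Cy5 signal of tissue RNA against median Cy3 signal of reference RNA, both on log axes, for Gkn2 (left) and Ghrl (right) on 60 arrays. Forestomach arrays (red) with a high Cy5 signal also had a high Cy3 signal, up to 2310 for Gkn2 and 48500 for Ghrl, whereas the Cy3 signals in lung and liver stayed at 224 or lower.

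No member was called between BghiP and vehicle in forestomach at any dose. At D1 all 10 differences from D0 were positive, with a median of 2.75 on the log2 scale and a range from 1.13 to 3.48, and standard errors from 0.87 to 2.13. None was called, as was the case for all 25068 probes tested (0%), with adjusted p from 0.518 to 0.697 (limma). The lowest unadjusted p among members was 0.0383, for Gkn1, and 2347 probes had an unadjusted p under 0.05. At D2 the median difference was 1.41 (0.45 to 2.12, adjusted p = 0.998 throughout), and at D3 it was 0.12 (-0.69 to 0.90, adjusted p = 1). On Cy5 alone, an alternative chosen after seeing the data, the D1 differences ran from 2.34 to 5.79 with a median of 4.26, and Ghrl was 4.08 ± 2.82 (SE) in place of 1.13 ± 0.87 (SE). At D2 the Cy5 median was 2.30 (0.80 to 3.19). At D3 it was -0.06 (-0.98 to 0.99), with 6 of 10 members negative, whereas 9 of 10 ratios were positive. None of these Cy5 differences was called either (limma, adjusted p from 0.542 to 1). At D2 and D3, too, 0 probes were called (0%), and 916 and 377 had an unadjusted p under 0.05. Residual shuffling, run as an alternative test, called 0 probes as well. The slope on dose had a median of -0.03 per mg/kg-bw/day and called 0 members and 0 of all probes (0%, 592 at an unadjusted p under 0.05). The groups also differed in how many arrays were high: all 10 members were well above background on 2 arrays of D0, 4 of D1, 3 of D2 and 3 of D3. The mean over the 10 members was 2.75 ± 2.69 in D0, 5.36 ± 2.38 in D1, 4.14 ± 2.62 in D2 and 2.96 ± 2.51 in D3 (SD, n = 5 each), and all 4 ranges overlapped. With slides as a block, which compares doses within slides, the D1 differences were the same in size, with adjusted p from 0.215 to 0.49. With this block 4546, 2363 and 1608 probes had an unadjusted p under 0.05 at D1, D2 and D3. Among members these were Gkn1 and Pgc, both at D1 (limma, unadjusted p = 0.0215 and 0.0443). With standard errors of this size, differences of several-fold were not detectable.

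Interaction contrasts asked whether the change at D3 was the same size in forestomach as in the other tissues. Against lung the median of D3 minus D0 in forestomach over that in lung was 0.04 (-1.39 to 0.76) and against liver 0.07 (-0.51 to 0.81). In both, 0 members and 0% of 33253 probes were called, with 684 and 1416 probes at an unadjusted p under 0.05 (limma). Within lung 5 members passed the filter on dim probes and within liver 3 did, and none was called at any dose (limma, lowest adjusted p = 0.927 and 0.78), as was the case for all 31019 lung and 25890 liver probes tested (0%). Unadjusted p under 0.05 was found for 687 to 1492 lung probes and 784 to 3145 liver probes a dose, and for the members in 1 of 15 lung values and 0 of 9 liver values.

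Other genes of the glandular mucosa, from lists chosen with earlier results of these data known, were compared with the members over the forestomach arrays. The measure is Pearson's r with the centred mean of the 10 members over the 20 arrays, with no p. Since it is taken across both sets, it describes the split and not a relation within them. Of 13176 genes, 103 (0.782%) had r of 0.9 or higher and 0 had r of -0.9 or lower. Of 19 further surface mucous, chief and parietal genes, 9 had r of 0.9 or higher. Of 6 further surface mucous genes 4 reached 0.9, among them Anxa10, an annexin, from -0.10 to 10.82, Ctse, the protease cathepsin E, from -1.51 to 7.58, and Vsig1, a junction protein of gastric epithelium, from -0.29 to 7.96. Of 6 chief cell genes 3 did: Cblif, the intrinsic factor that binds vitamin B12, from -0.09 to 10.56, Chia1, an acidic chitinase, from -0.04 to 10.08, and Pga5, a pepsinogen, from -0.43 to 6.28. Of 7 parietal genes 2 did, Kcne2, a subunit of the potassium channel that serves the proton pump, from -0.11 to 7.56, and Clic6, an intracellular chloride channel protein, from -0.05 to 5.72. Among those that did not reach it were Lipf, a gastric lipase well above background on 1 forestomach array, with r = 0.11, Cckbr, the gastrin receptor, on 0 arrays with r = 0.21, and Capn9, a gastric calpain, on 19 arrays with r = 0.39. Against lung, 5 of 6 surface mucous, 4 of 6 chief and 3 of 7 parietal genes were called higher in forestomach, beside 15.7% of all probes. Called lower, beside 18.8% of all probes, were 2 parietal genes, Kcne2 and Clic6, which fell by 1.81 and 1.09 on the log2 scale (limma, adjusted p = 0.00124 and 0.0156). Against liver, 5 of 6 surface mucous, 5 of 6 chief and 5 of 7 parietal genes were called higher, beside 21.5% of all probes. Capn8 and Aqp4 were called lower than in liver, beside 17.5% of all probes. Of the genes called higher, 8 of 12 against lung and 8 of 15 against liver, including all 5 surface mucous genes, passed the filter on dim probes through forestomach alone. Their direction was fixed by the filter, so these counts are descriptions.

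Endocrine genes were split. Sst, which encodes somatostatin of gastric D cells, ran from -0.04 to 5.38 with r = 0.94. Chgb, a granule protein of endocrine cells and nerves, ran from 0.26 to 5.87 with r = 0.72, and Hdc, the histamine-forming enzyme, from -0.13 to 3.61 with r = 0.83. Gast, which encodes the antral hormone gastrin, was well above background on 4 of 20 arrays and lay between -0.12 and 0.69, and Pdx1, a factor of antrum and duodenum, on 0 arrays. Among gastric factors Spdef, a factor of mucous cells, had r = 0.95, Foxa3 0.88 and Gata6 0.88. Sox2 and Barx1, factors of the early stomach, were well above background on 19 forestomach arrays each with r of -0.41 and -0.15. Of 8 intestinal genes, Fabp2, a fatty acid binding protein, was well above background on 16 forestomach arrays, Vil1, a protein of microvilli, on 12 with r = 0.89, Lct, the enzyme lactase, on 8, Apoa4 on 5 and Alpi on 1. The intestinal factors Cdx1 and Cdx2 and the intestinal mucin Muc2 were well above background on 0 arrays. Of 8 pancreatic genes, Clps, which encodes colipase, ran from 0.15 to 9.43 with r = 0.97, Cela1, an elastase, was well above background on 15 arrays with r = 0.90, and Cel, a lipase, on 19 with r = 0.61. Ctrb1 was well above background on 11 arrays, Cela2a on 1, and Cpa1, Pnlip and Cela3b on 0. The genes at 0 or 1 arrays, with Gast, Capn9, Capn8, Aqp4, Sox2, Barx1, Apoa4 and Ctrb1, and Krt5, Krt14, Krt13, Lor, Sbsn, Trp63 and Krt7 of the squamous and columnar lists, were singled out after their values were seen.

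Of 6 genes of columnar epithelium 3 had r of 0.9 or higher, all of them keratins. Krt19 ran from -2.39 to 5.26, Krt18 from -4.53 to 2.11 and Krt8 from -3.81 to 3.28, with r of 0.97, 0.96 and 0.96. Krt7, another keratin of simple epithelium, ran from 0.54 to 2.29 with r = 0.69. For squamous and muscle genes r had a median of 0.02 over 11 squamous genes, with a highest value of 0.73 for Krt6a, and of -0.23 over 6 smooth muscle genes. Krt4, a keratin of squamous lining, ran from 3.16 in mouse 2 to 8.25 in mouse 10, 2 arrays with all members high. Of the 3 liver genes, all well above background on 12 to 15 forestomach arrays, Apoa1 and Ttr had r of 0.87 and 0.80 and Alb 0.21. Of the 5 fat genes, Cfd was 8.80 in mouse 5 and 0.06 in mouse 12, with r = -0.50, and Lep was well above background on 0 arrays. Of the 3 lung genes, Sftpc was 7.57 in mouse 2 and 4.35 in mouse 14 and 2.28 or lower on the other forestomach arrays. Scgb1a1, a secretory protein of airway club cells, was well above background on all 20, from 3.01 to 6.26. Sftpb was well above background on 5, and all 3 r were 0.38 or lower. The part of these markers in the member values was not tested.

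**Figure D5:**
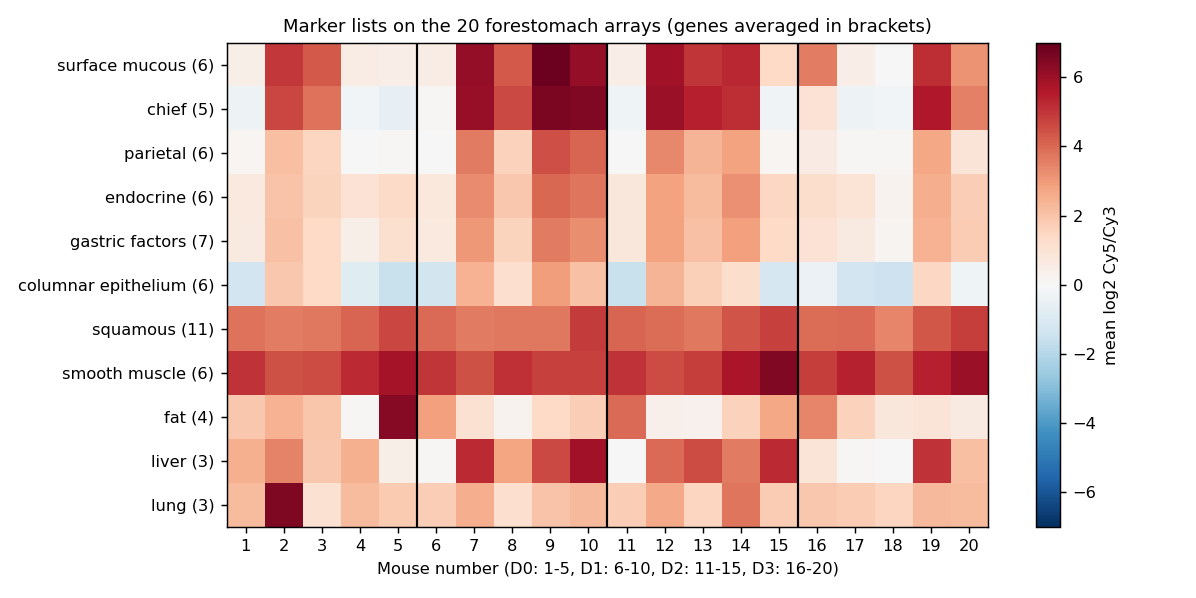
Mean log2 Cy5/Cy3 of marker lists (rows, number of genes averaged in brackets) on the forestomach array of each mouse (columns, lines between dose groups). Surface mucous, chief and parietal lists alternate between high and low arrays, whereas squamous and smooth muscle lists are positive on all 20.

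The 12 genes most like the members over the forestomach arrays had r from 0.986 to 0.997. Psca, a surface antigen of gastric mucosa, led with r = 0.997 and values from -0.01 to 7.25, and was followed by Anxa10 and Tspan1, a tetraspanin, at 0.996. Agr2, an enzyme of mucin folding, had r = 0.993, Vsig2 0.992, Pla2g10, a secreted phospholipase, 0.990, Bpifb1 0.989 and Cblif 0.989. Mucl3, 2210407C18Rik, Sult1c2 and Lrrc26 completed the 12, from 0.986 to 0.988. Only Psca, Anxa10 and Cblif of these were on the marker lists. Within the 12 high arrays their r with the members ranged from 0.863 for 2210407C18Rik to 0.994 for Tspan1. Tspan1, Vsig2, Bpifb1 and Lrrc26 also exceeded background clearly on each of the 20 lung arrays. The most opposite gene was Sfrp4, a secreted Wnt antagonist, with r = -0.857 and values from -0.19 to 3.55.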

How the data were processed

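Scanner files held median signal intensities of each spot in Cy5 and Cy3, background included, processed signal intensities and flags, written by Feature Extraction 10.7.3.1 (build mm9) per the file headers. The deposited series matrix holds log2 ratios that the authors made from median signals by LOWESS, with no background subtracted. Here, log2 ratios of the median intensities were normalized within arrays by loess (limma 3.58.1, R 4.3.3), which matched the deposited log2 ratios at r from 0.992 to 0.999. Control spots and outlier-flagged values (0.46%) were left out, spots of a probe were averaged (10 for Gkn2), and no value was saturated. Symbols came from RefSeq accessions (GRCm38.p6), for 47.4% of probes.

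Linear models of the 4 doses in forestomach, and of all 12 groups of 5 mice for tissue contrasts, were fitted across probes whose Cy5 signal was well above background on 5 or more of 20 arrays in a tissue. A call needed an adjusted p (Benjamini-Hochberg, two-sided) no higher than 0.05 and a difference of at least 1.5-fold, except for slopes, which had no minimum change. The number of arrays limits precision. Correlations used 100000 permutations. Same-numbered samples come from the same animal per the labels; deviations of forestomach and lung correlated at a median r of 0.21 (0 to 0.43 over 20 mice), and of forestomach and liver at 0 (-0.19 to 0.15). The tests were tested on simulated data, drawn as normal values with the same SD for a probe in all groups. That setting lacks the clusters of the members in forestomach. Besides the members, named genes were at most 3 per marker list, those with the largest SD in forestomach, and the 12 non-member genes with the highest r; others are said to be chosen later. The members and lists were chosen with earlier results of these data known. Of 95 genes on 15 lists, 92 were found on the array; skeletal muscle, mucous neck, intestinal and pancreatic lists had at most 5, 2, 8 and 8 genes there, with median r of 0.08, 0.70, 0.30 and 0.44.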

Additional observations from a re-analysis of the deposited data

Results flagged for a closer look

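In 120 groups of 5 arrays, formed by each member in each dose and tissue, 14 had 1 array far from the others by Dixon's criterion. About 1 in 20, or 6, would be flagged if the groups were independent and their values normal. The members share arrays and move together, and their forestomach values fall into clusters, so 14 cannot be set against 6. The 14 flags are a list and not a test.

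Of these, 7 concern the forestomach of D1 mouse 6, the low array of a group with 4 high ones: Tff1 4.38 against 6.60 to 7.36 in the others, Tff2 0.42 against 5.35 to 6.16, Gkn2 2.86 against 8.65 to 9.59, Pgc 1.38 against 5.40 to 6.90, Atp4a 0.23 against 5.80 to 7.76, Atp4b 0.94 against 7.17 to 8.30, and Ghrl 0.24 against 3.12 to 3.84. In D2, Tff1 of mouse 11 was 2.35 against 6.06 to 7.13 in forestomach.

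The lung of D3 mouse 20 stood apart with Tff1 at 3.64 against -0.29 to -0.04 and Gkn2 at 2.30 against -0.03 to 0.00. The remaining values were small. In liver, Tff2 was 1.46 in D2 mouse 15 against 0.13 to 0.48, Atp4a was 0.56 in D2 mouse 13 against 0.14 to 0.25, and Gkn1 was 0.33 in D1 mouse 8, where it was not well above background. In lung, Gkn1 of D1 mouse 8 was 0.10 against 0.51 to 0.64 and was not well above background.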

How the results depend on the processing

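Every member kept a positive difference from lung and from liver in all 524 values recomputed under other settings, and 2 of these lost the call, both against lung with the processed signals (Tff2 and Ghrl). For Tff1, Gkn2, Pgc, Atp4a and Atp4b the direction was fixed by the filter on dim probes, so their values and calls here are descriptions. With the processed signals 8 of 10 members were thus called against lung. The count moved further where fewer probes or mice were used. Only Tff1, Gkn3 and Ghrl were well above background on all 20 arrays of a tissue. With such probes alone, 3 members were left to be called against lung and 3 against liver. With vehicle mice alone 5 were called higher than in lung and 7 higher than in liver, beside 14.5% and 21% of all probes. Processed signals called 17812 probes against lung and 20592 against liver, in either direction, in place of 11497 and 12974 of 33253, and the cause was not tested. Normexp with an offset of 50, the deposited log2 ratios, no filter, a variance trend and slide as a block left all 10 members called in both comparisons where they could be fitted; quantile normalization of average signals leaves ratios as they are. With mouse as a replicate block 10 of 10 members were called against lung and against liver, on 11499 and 12978 probes, and the block changed no call of a member. Leaving out each mouse in turn left 10 members called in both. At every dose, for the slope and in the interactions, 0 members were called under every setting run, including each mouse left out and Cy5 alone, which was chosen after seeing the data. With each mouse left out in turn, or each of its arrays alone, chosen after seeing the data, members above every lung value numbered 0 to 2, with 2 only without mouse 20 or its lung, and above every liver value 2 to 3. The share of all probes so ordered ran from 5.25% to 6.29% for lung and from 12.2% to 13% for liver. The correlations of 31 pairs became 31 to 36 under other signals or normalizations and 26 to 33 without 1 array. They had been planned over all 20 forestomach arrays and were restricted after the 2 clusters were seen. Depth is not defined for arrays, and members not well above background have only bounds.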
